A study of Mus musculus with 16 samples.

Results

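The mitochondrial ribosomal protein genes are described here in lung tumors of mice, 9 labelled Max null (RPMax-/-) and 7 labelled Max wild-type (RPMaxWT). Members are every row whose symbol is Mrpl or Mrps followed only by digits, a rule that uses no measured value but was set with earlier results of these data known. It gave 73 of the 23284 symbols counted, 47 Mrpl (named for the large subunit) and 26 Mrps (named for the small subunit). RNA sequencing counts from whole tumors were compared between the groups. Both groups share the RP genotype, a 129/SvJ and C57BL/6 background and tumor initiation by adenovirus that carries Cre recombinase under the CMV promoter, given into the trachea; that promoter is not restricted to 1 cell type. In the field, RP usually stands for floxed Rb1 and Trp53, deletion of which in lung gives tumors of the small cell type; the labels leave the letters unexplained and give neither age nor time after infection. Nothing states that each tumor is from a different mouse, so the p-values below measure the spread between these 16 samples.

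Mitochondria carry their own ribosome, which translates the few messenger RNAs of mitochondrial DNA into core subunits of the respiratory chain and of ATP synthase. Its ribosomal RNAs are mitochondrial, but all of its proteins are encoded in the nucleus, made in the cytosol and imported. The small subunit decodes the messenger RNA, and the large subunit joins the amino acids and guides the new chain towards the inner membrane. MAX is the dimerization partner that MYC proteins need to bind the E-box CACGTG, and MYC is known to raise the expression of many genes for mitochondrial biogenesis.

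Reads in genes numbered 8.66 to 15.11 M per tumor, and no pair of libraries agreed within sampling noise (smallest chi-square 32.8 per degree of freedom). The level of Max was 64.1 to 83.4 CPM in null tumors (counts per M reads in genes, with library sizes scaled by TMM), no lower than the 52.3 to 75.7 CPM in wild-type tumors; these counts cover the whole gene and do not resolve single exons, so they cannot check the deletion. Neuroendocrine markers were present in all tumors: the summed level of 10 of them was 4212 to 8304 CPM in null tumors and 4416 to 27058 CPM in wild-type tumors. The 2 highest sums were those of wild-type tumors 2 (27058 CPM) and 7 (13665 CPM), and Calca alone reached 23420 CPM. The share of reads aligned to more than 1 place in the genome did not overlap between the groups, at 9.17% to 11.8% in null tumors and 12.3% to 22.2% in wild-type tumors. Wild-type tumors 2, 4 and 7 had the highest shares, 16.01%, 20.8% and 22.2%, and the next wild-type tumor had 14.6%. Results are therefore given with all 16 tumors and with these 3 left out.

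Promoters of 5 members that passed the test below are shown first, 1 for each kind of promoter found: none of 4 searched motifs, the E-box, and motifs of 3 factors known to act on nuclear genes for mitochondria (NRF1, the ETS factor GABP, and YY1). Each line gives the 250 bases before the annotated start, from RefSeq on the GRCm38.p6 build, 5′ to 3′ on the gene's strand, with motif matches in capitals.
Mrpl30: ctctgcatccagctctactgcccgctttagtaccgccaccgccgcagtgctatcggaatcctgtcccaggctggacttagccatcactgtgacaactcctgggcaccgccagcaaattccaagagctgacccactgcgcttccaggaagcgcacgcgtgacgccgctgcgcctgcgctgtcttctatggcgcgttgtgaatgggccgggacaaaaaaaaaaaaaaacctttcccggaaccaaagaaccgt
Mrpl20: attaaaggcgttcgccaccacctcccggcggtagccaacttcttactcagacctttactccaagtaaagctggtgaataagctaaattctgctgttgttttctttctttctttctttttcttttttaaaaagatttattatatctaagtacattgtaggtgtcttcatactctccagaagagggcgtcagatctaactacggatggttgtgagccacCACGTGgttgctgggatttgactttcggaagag
Mrpl32: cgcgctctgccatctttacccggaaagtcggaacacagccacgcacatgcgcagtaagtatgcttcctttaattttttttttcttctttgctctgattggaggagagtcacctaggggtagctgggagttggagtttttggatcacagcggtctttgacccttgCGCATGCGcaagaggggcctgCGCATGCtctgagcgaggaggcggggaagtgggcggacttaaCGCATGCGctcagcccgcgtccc
Mrpl18: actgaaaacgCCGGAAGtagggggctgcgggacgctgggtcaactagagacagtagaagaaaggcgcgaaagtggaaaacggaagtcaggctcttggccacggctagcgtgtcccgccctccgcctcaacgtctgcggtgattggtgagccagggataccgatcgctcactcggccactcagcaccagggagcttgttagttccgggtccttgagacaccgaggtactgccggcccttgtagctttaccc
Mrps11: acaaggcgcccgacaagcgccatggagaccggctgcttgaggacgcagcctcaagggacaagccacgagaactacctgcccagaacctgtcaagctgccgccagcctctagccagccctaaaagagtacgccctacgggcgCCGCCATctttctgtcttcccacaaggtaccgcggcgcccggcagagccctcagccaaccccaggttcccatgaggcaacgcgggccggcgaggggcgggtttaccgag
The Mrpl30 window (chr1:37890227-37890476, plus strand) held none of the searched motifs. Mrpl20 (chr4:155802628-155802877, plus strand) had a CACGTG that begins 33 bases before the start. Mrpl32 (chr13:14613038-14613287, minus strand) had the NRF1 core at 3 places, at 86, 65 and 23 bases before the start, read on both strands at 86 and 23. Mrpl18 (chr17:12916092-12916341, minus strand) had the ETS core 240 bases before the start, and Mrps11 (chr7:78782881-78783130, plus strand) had the YY1 core 109 bases before it.

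RefSeq promoters were matched for 64 of the 73 members. Counted per gene, over all its windows of 300 bases (250 before and 50 after the start), CACGTG was held by 4 of them (6.25%), against 8.09% of all 27025 genes in the table. CGCATGC or GCATGCG, the NRF1 core on either strand, was found in 7 members (10.9%), against 4.015% of all genes. For CCGGAAG or CTTCCGG, the ETS core, the count was 21 members (32.8%), against 9.93% of all genes. ATGGCGG or CCGCCAT, the YY1 core, was found in 12 members (18.8%), against 4.69% of all genes. No member window held overlapping matches of different motifs. Among the 11 matched members that passed the test below, 1 held the E-box, 1 the NRF1 core, 3 the ETS core and 2 the YY1 core; a match is a description of letters and not a bound site.

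All 73 members were expressed above 5 CPM in every tumor and all passed the filter on low counts, with levels between 8.17 and 284 CPM. Levels between genes were compared per kb of transcript, as the mean CPM over 16 tumors divided by transcript length. That length is a median over all annotated transcripts of a symbol, of every kind, and not from the annotation used for counting. The ranking therefore depends on the annotation as well as on expression. The highest large subunit levels were those of Mrpl18 (126 CPM per kb), which sits in the central protuberance, Mrpl30 (120 CPM per kb) and Mrpl13 (108 CPM per kb), both counterparts of the bacterial proteins of the same number. In the small subunit, Mrps21 (126 CPM per kb), Mrps33 (96.5 CPM per kb) and Mrps23 (84.1 CPM per kb) were highest. The lowest were Mrpl16 (7.94 CPM per kb) and Mrpl1 (9.44 CPM per kb), the protein of the mobile stalk beside the tRNA exit site, and, by the Mrps symbols, Mrps22 (10.9 CPM per kb) and Mrps30 (11.5 CPM per kb). Mrps30 is a protein of the large subunit despite its symbol, and Mrps36 is a component of the 2-oxoglutarate dehydrogenase complex and not of the ribosome.

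With all 16 tumors, 13 of the 73 members (17.8%) were lower in Max null tumors and 0 were higher. The call is edgeR's quasi-likelihood test with a Benjamini-Hochberg adjusted p under 0.05 over all 14825 genes tested, of which 8.64% were lower and 7.4% higher in null tumors. By an unadjusted p under 0.05, 36 members were lower (49.3%, against 17.9% of all genes) and 0 higher (against 14.9%), and DESeq2 called 21 lower and 0 higher (12.1% and 10.4% of all genes). The log2 difference (null minus wild-type) was below 0 for 69 of 73 members (94.5%), against 52.4% of all genes, and its median was -0.48 over the members and -0.03 over all genes. By symbol, 9 of 47 Mrpl genes passed, with a median of -0.42, and 4 of 26 Mrps genes passed, with a median of -0.49. The 4 include Mrps30, a protein of the large subunit, and the 26 include Mrps36. The difference between the subunits was not tested. In whole tumors, fewer cells of a type and less RNA per cell cannot be told apart.

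Without wild-type tumors 2, 4 and 7, 0 of 73 members passed, where 1.68% of the 15276 genes tested did (0.871% lower and 0.805% higher). By an unadjusted p under 0.05, 3 members were lower (4.11%, against 10.1% of all genes) and 1 was higher (1.37%, against 9.49%). The log2 difference was below 0 for 43 members (58.9%), against 50% of all genes. Its median was -0.03 over the members, -0.02 for Mrpl and -0.06 for Mrps genes, and 0.00 over all genes. The 13 calls were thus lost with these 3 libraries, in a fit of 13 tumors that also called fewer genes of every kind.

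**Figure D1:**
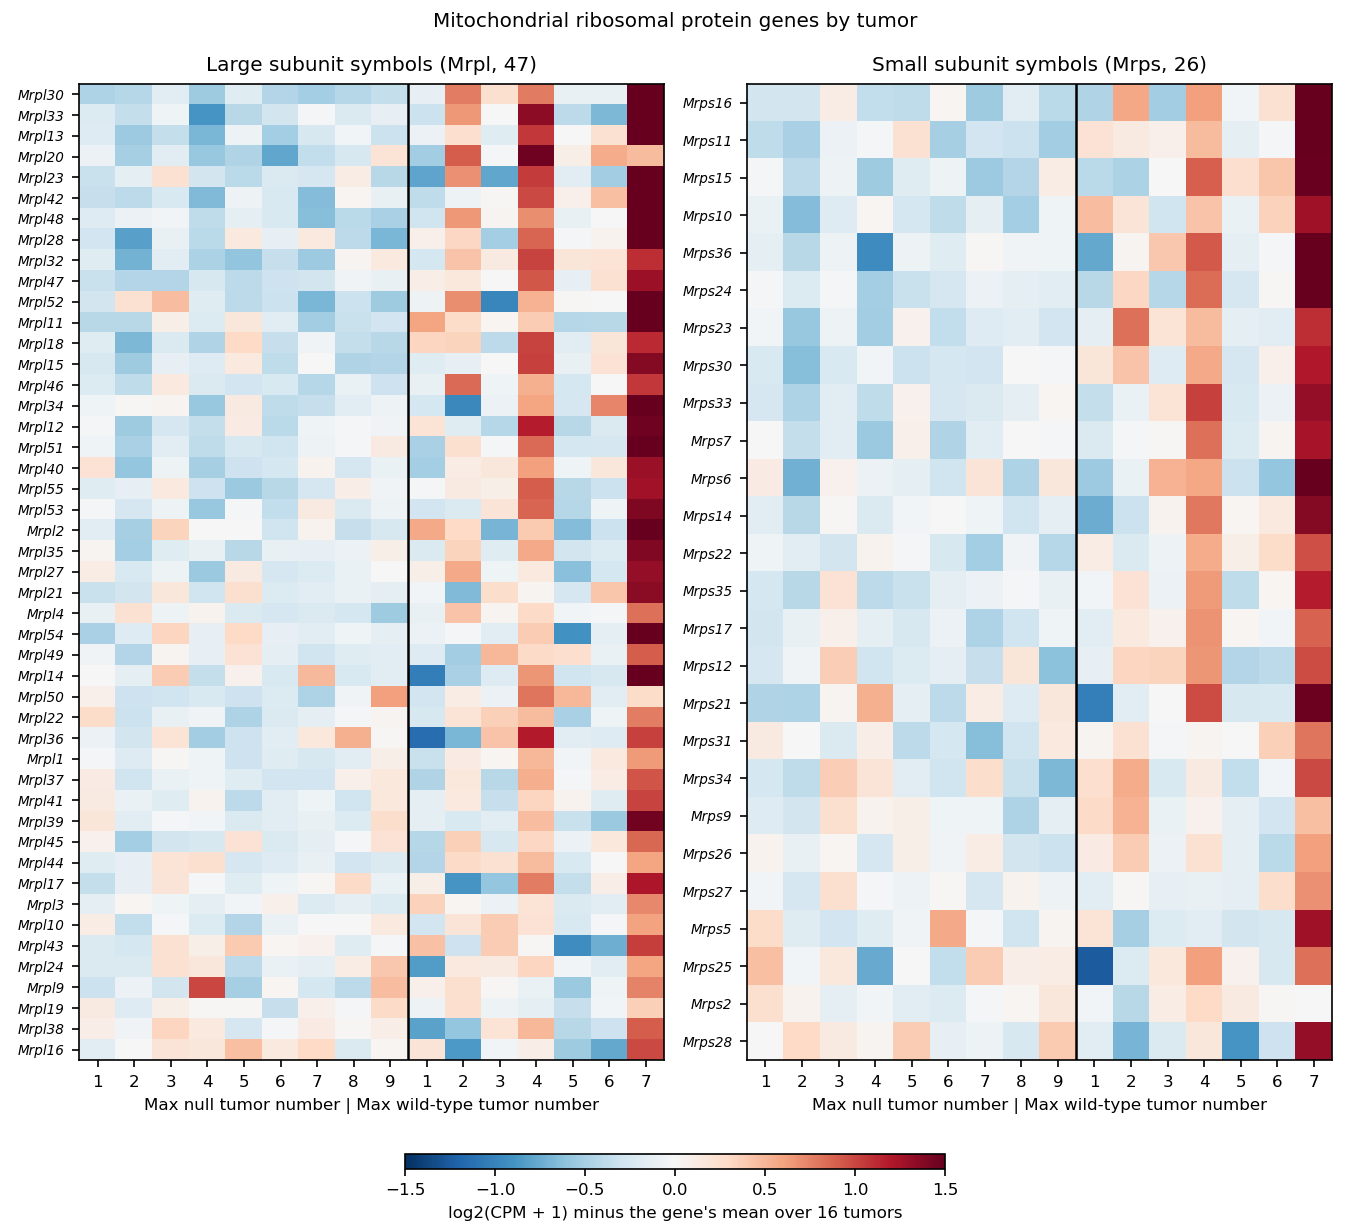
Level of each of the 73 members in each tumor, as log2(CPM + 1) minus the gene's mean over 16 tumors, with Mrpl genes on the left and Mrps genes on the right, sorted by their log2 difference, and null tumors 1 to 9 left of wild-type tumors 1 to 7. Values beyond 1.5 take the end colors; wild-type tumor 7 is the highest tumor for 67 members, and tumor 4 is next most often among the 3 highest.

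The excess lay in a few wild-type tumors and ran through nearly every member. Wild-type tumor 7 was the highest of all 16 for 67 of 73 members, and one of tumors 2, 4 and 7 was the highest for 72. Tumor 7 was among the 3 highest for 70 members, tumor 4 for 62 and tumor 2 for 28, and for 23 members the 3 highest tumors were exactly these 3. The lowest tumor was a null one for 42 members, but 9 of the 16 tumors are null, so this count alone does not set the groups apart. Wild-type tumor 2 was the lowest for 7 members, and wild-type tumors 4 and 7 were the lowest for 0. Mean CPM was higher in null tumors for 4 members with all 16 tumors and for 30 members without the 3.

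The summed level of the 73 genes was 2732, 2381, 2906, 2578, 2713, 2533, 2648, 2659 and 2832 CPM in null tumors 1 to 9. In wild-type tumors 1 to 7 it was 2628, 3277, 2866, 4644, 2608, 2872 and 7134 CPM. With this TMM scaling, the 4 other wild-type tumors lay inside the range of the null tumors. The means were 2665 ± 157 CPM in null tumors (SD, n = 9) and 3718 ± 1662 CPM in wild-type tumors (SD, n = 7), or 2744 ± 145 CPM over the 4 other wild-type tumors. Tumor 7 also had the TMM factor farthest from 1 (0.748, others 0.936 to 1.07). Scaled by reads in genes alone, the sum in tumor 7 was 5338 CPM, still the highest. The means were then 2738 CPM in null tumors and 3470 CPM in wild-type tumors. By that scaling, wild-type tumor 6 (3064.5 CPM) lay above the highest null tumor (3001 CPM), and wild-type tumor 2 was close to tumor 6 (3068 CPM).

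By symbol, summed Mrpl levels were 1818 ± 112 CPM in null tumors and 2571 ± 1188 CPM in wild-type tumors, and summed Mrps levels were 847 ± 49.4 CPM in null tumors and 1148 ± 475 CPM in wild-type tumors (SD, n = 9 and 7). The ratio of the large to the small sum was 2.15 ± 0.0593 in null tumors (2.06 to 2.25) and 2.21 ± 0.103 in wild-type tumors (2.10 to 2.34). Wild-type tumors 2, 4 and 7 had the 3 highest ratios of the 16, at 2.26, 2.34 and 2.34, while the 4 other wild-type tumors averaged 2.13 ± 0.0311. As the mean log2(CPM + 1) of Mrpl minus that of Mrps genes, which weights genes equally, the difference averaged 0.22 ± 0.03 over the 9 null tumors and 0.23 ± 0.06 over all 7 wild-type ones (SD). It was 0.26 to 0.32 in wild-type tumors 2, 4 and 7 and averaged 0.19 ± 0.03 in the 4 others. In null tumors it ran from 0.18 to 0.28, and null tumors 8 (0.281) and 9 (0.261) were above wild-type tumor 2 (0.257).

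**Figure D2:**
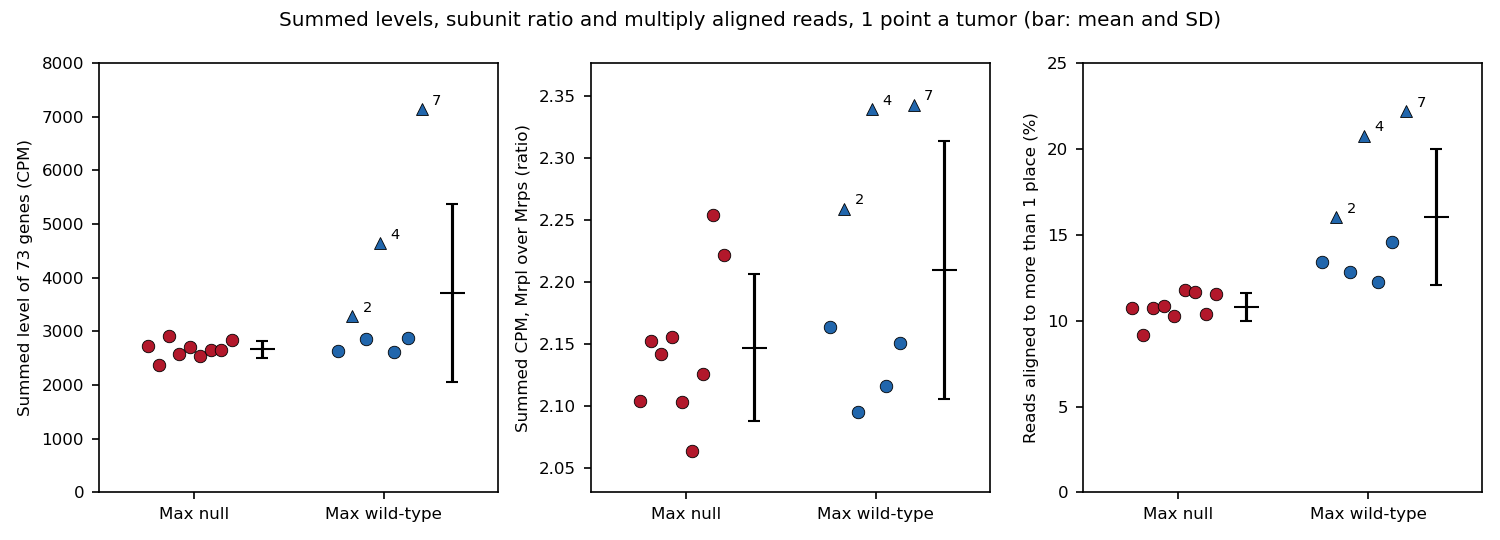
Summed CPM of the 73 genes (left), the ratio of summed Mrpl to summed Mrps CPM (middle, axis not from 0) and the percent of reads aligned to more than 1 place (right), 1 point a tumor, with null tumors left of wild-type tumors and bars for mean and SD. Triangles are wild-type tumors 2, 4 and 7, which have the 3 highest values in each panel.

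Other properties moved with the members in these 3 libraries. Within a library, the log2 level of each gene minus its mean over the 16 tumors was correlated with transcript length over genes. This Spearman correlation, which is relative to the other tumors, was -0.122, -0.219 and -0.324 in wild-type tumors 2, 4 and 7. It was -0.0534 to 0.148 in null tumors and -0.0562 to 0.0927 in the 4 other wild-type tumors. Member transcripts are short, with a median length of 855 bases against 1500.5 bases for the genes tested. Over the 73 members, the log2 difference and log2 transcript length had a Pearson r of 0.225 with 16 tumors and -0.124 without the 3, as a description across genes that share libraries. The 37 members with the shorter transcripts had a median log2 difference of -0.52 with 7 called lower, and the 36 longer ones -0.33 with 6 called lower (8.64% of all genes). After each library was corrected for transcript length and GC content in edgeR, 9 members (12.3%) were lower and 0 higher, of which 7 were among the 13 (7.26% of all genes lower, 5.95% higher), with a median of -0.33. When the share of multiply aligned reads entered the fit as a covariate, 0 members passed and the median was 0.26; 13 members were then higher (17.8%, against 6.28% of all genes) and 0 lower (against 7.34%) by an unadjusted p under 0.05. Since that share does not overlap between the groups, it and the genotype cannot be told apart in such a fit.

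Summed markers of other cells varied between tumors, and none of these sums set wild-type tumors 2, 4 and 7 apart as a group. Summed over 6 macrophage genes, the level was 106 to 229 CPM in null tumors and 153 to 421 CPM in wild-type tumors, with 209, 330 and 362 CPM in wild-type tumors 2, 4 and 7 and the highest value, 421 CPM, in wild-type tumor 5. The sum of 7 alveolar type 2 genes was 652 to 2894 CPM in null tumors and 166 to 2006 CPM in wild-type tumors. For 6 fibroblast genes it was 274 to 1228 CPM in null tumors and 149 to 677 CPM in wild-type tumors, lowest in wild-type tumor 2. For 6 endothelial genes it was 72.2 to 153 CPM in null tumors and 44.8 to 125 CPM in wild-type tumors, and wild-type tumors 2 and 7 had the lowest values of the 16, 44.8 and 51.7 CPM. T and NK cell genes (6) summed to 1.66 to 11.6 CPM in null tumors and 1.76 to 22.4 CPM in wild-type tumors, highest in wild-type tumor 2. Most of that highest sum was 1 gene, Cd3g, at 16.3 CPM. The highest wild-type levels of the others were 1.35 (Cd3e), 2.14 (Cd2), 2.46 (Cd8a), 1.71 (Nkg7) and 8.72 CPM (Gzma). In edgeR, 3 of the 6 macrophage genes were lower and 1 of the 7 alveolar type 2 genes was higher in null tumors (8.64% and 7.4% of all genes). No marker was at 0 in every tumor, and the part of these cells in the result was not tested.

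Among the large subunit genes, Mrpl30 had the largest change. It measured 45.8 to 59.6 CPM in null tumors (median 49.2) and 61.3 to 284 CPM in wild-type tumors (median 78.7), with 114, 116 and 284 CPM in wild-type tumors 2, 4 and 7. The groups did not overlap, which held for 0.654% of all genes in this direction, and Mrpl30 was the only member of which this was true. Leaving out tumors cannot create an overlap, so the 61.3 to 78.7 CPM of the 4 others is no separate check. Without the 3 tumors, 1.17% of all genes did not overlap in this direction. The log2 difference was -1.12 ± 0.27 (SE; edgeR adjusted p = 0.0139), and without the 3 tumors -0.37 ± 0.12 (edgeR adjusted p = 0.12). Its call held in all 16 fits that left out 1 tumor each.

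Mrpl32, whose maturation by a mitochondrial protease precedes assembly into the ribosome, measured 20.4 to 37.7 CPM in null tumors (median 26.6) and 28.0 to 74.0 CPM in wild-type tumors (median 39.4). The groups overlapped in part, and wild-type tumors 4 and 7 were highest at 69.8 and 74.0 CPM. The log2 difference was -0.78 ± 0.21 (SE; edgeR adjusted p = 0.0206), a call that held in all 16 fits without 1 tumor, and -0.37 without the 3 tumors (edgeR adjusted p = 0.273). Mrpl13 measured 43.7 to 69.1 CPM in null tumors (median 56.5) and 62.2 to 235 CPM in wild-type tumors (median 83.4). The overlap was small, and the log2 difference was -0.92 ± 0.25 (SE; edgeR adjusted p = 0.022), or -0.32 without the 3 tumors (edgeR adjusted p = 0.237).

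Mrpl47, a protein at the exit of the peptide tunnel, measured 13.4 to 17.9 CPM in null tumors (median 14.8) and 17.0 to 46.6 CPM in wild-type tumors (median 20.8). Wild-type tumors 4 and 7 stood apart at 36.4 and 46.6 CPM, and the log2 difference was -0.78 ± 0.21 (SE; edgeR adjusted p = 0.0224). Mrpl20, a counterpart of the bacterial assembly protein of the same number, measured 28.4 to 57.3 CPM in null tumors (median 38.3) and 34.3 to 138 CPM in wild-type tumors (median 69.1). Here tumor 4 was highest and the groups overlapped, with a log2 difference of -0.86 ± 0.24 (SE; edgeR adjusted p = 0.0235). Without the 3 tumors the differences were -0.36 for Mrpl47 and -0.38 for Mrpl20 (edgeR adjusted p = 0.218 and 0.314).

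Of the remaining Mrpl genes that passed, Mrpl48 averaged 34.0 ± 4.74 CPM in null tumors and 60.1 ± 34.3 CPM in wild-type tumors (SD, n = 9 and 7; edgeR adjusted p = 0.0312). It has a named pseudogene, so its count is uncertain. Mrpl42 averaged 51.6 ± 8.50 CPM in null tumors and 91.6 ± 51.3 CPM in wild-type tumors (edgeR adjusted p = 0.0314). Mrpl18 averaged 43.3 ± 9.05 CPM in null tumors and 70.0 ± 28.1 CPM in wild-type tumors (edgeR adjusted p = 0.0357). Wild-type tumor 7 was the highest of all 16 for all 3, at 132, 193 and 113 CPM. Mrpl15, named here after its values were seen because it completes the 13, averaged 36.3 ± 6.06 CPM in null tumors and 58.7 ± 29.8 CPM in wild-type tumors (edgeR adjusted p = 0.0486).

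The 4 Mrps genes that passed were Mrps10, Mrps23, Mrps30 and Mrps11. Mrps10 measured 17.7 to 29.0 CPM in null tumors (median 24.7) and 22.8 to 69.9 CPM in wild-type tumors (median 36.3), a log2 difference of -0.67 ± 0.20 (SE; edgeR adjusted p = 0.0345). Mrps23, a protein with no bacterial counterpart, measured 35.4 to 55.5 CPM in null tumors (median 46.2) and 47.1 to 116 CPM in wild-type tumors (median 61.3), with 94.9 CPM in tumor 2; the log2 difference was -0.63 ± 0.19 (SE; edgeR adjusted p = 0.0375). In both genes the groups overlapped, and without the 3 tumors the differences were -0.39 and -0.18 (edgeR adjusted p = 0.256 and 0.537). Mrps30 averaged 33.5 ± 4.47 CPM in null tumors and 50.7 ± 20.2 CPM in wild-type tumors (edgeR adjusted p = 0.0446). Mrps11 averaged 17.7 ± 3.53 CPM in null tumors and 29.6 ± 17.0 CPM in wild-type tumors (edgeR adjusted p = 0.0478), and it overlaps Mrpl46 head to head in the annotation.

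**Figure D3:**
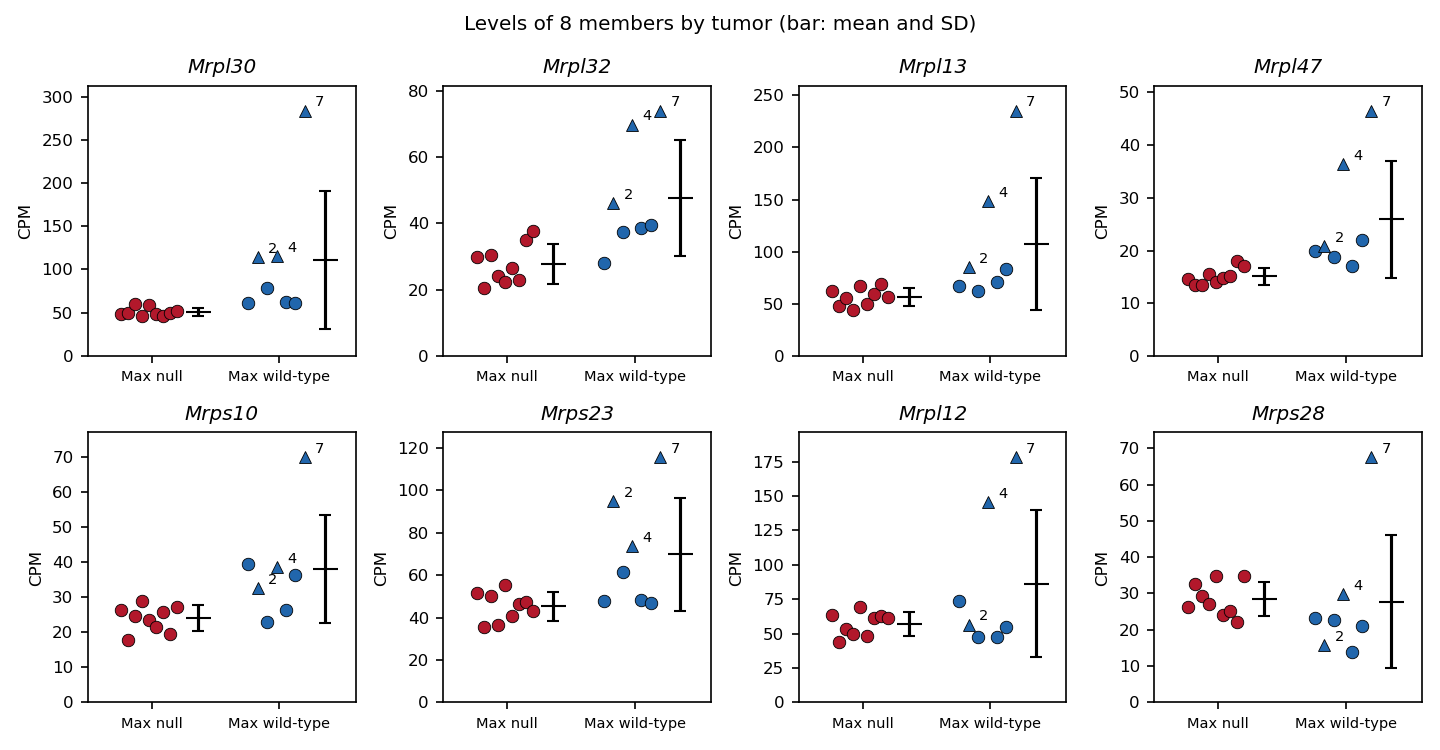
CPM of 8 members in each tumor, with null tumors (red) left of wild-type tumors (blue), triangles for wild-type tumors 2, 4 and 7, and bars for mean and SD; Mrps28 was added after its values were seen. Mrpl30 is the gene whose groups do not overlap (45.8 to 59.6 against 61.3 to 284 CPM); in the others they do, and tumor 7 is the highest wild-type tumor in each panel.

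Single tumors changed the number of members called lower, and the share of all genes called lower varied with it. Without wild-type tumor 4, 2 members were called, Mrpl30 and Mrpl32 (5.31% of all genes), and leaving out wild-type tumor 7 gave 5, those and Mrpl13, Mrpl20 and Mrpl47 (5.56%). The count was 22 (10.5%) when wild-type tumor 1 was left out and 20 (10.3%) when wild-type tumor 3 was. It was 6 without null tumor 2, 4, 7 or 8 (5.6%, 5.88%, 5.66% and 5.95% of all genes), 7 without null tumor 6 (5.63%) and 8 without null tumor 1 (5.83%).

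The members that did not pass included well known ones. Mrpl12, the stalk protein that recruits translation factors, measured 43.8 to 69.6 CPM in null tumors (median 61.4) and 47.4 to 178 CPM in wild-type tumors (median 56.5). Its wild-type median was below its null median, its mean was above, and the log2 difference was -0.60 ± 0.27 (SE; edgeR adjusted p = 0.125), or 0.02 without the 3 tumors. Mrps21 had a log2 difference of -0.40 ± 0.29 (SE; edgeR adjusted p = 0.369), or 0.28 without the 3. Mrpl1, Mrps22, Mrps33 and Mrps36 had -0.31, -0.49, -0.59 and -0.66 (edgeR adjusted p = 0.162, 0.0688, 0.0813 and 0.0975). Mrpl16 had the highest log2 difference of all members, 0.13 ± 0.26 (SE; edgeR adjusted p = 0.771). Mrps28, named after its values were seen, measured 22.2 to 34.9 CPM in null tumors and 13.9 to 67.6 CPM in wild-type tumors. Its log2 difference was 0.04 with 16 tumors and 0.49 ± 0.19 without the 3, the highest of all members there (SE; edgeR adjusted p = 0.164).

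By origin, 45 members are counterparts of bacterial ribosomal proteins and 27 are specific to mitochondria, Mrps36 being neither. Of the 45, 9 were lower (8.64% of all genes), with a median log2 difference of -0.49, and of the 27, 4 were lower, with a median of -0.37. Without the 3 tumors the medians were -0.05 and -0.03. The members lie on 17 chromosomes. In the annotation, 4 members overlap another counted gene over 20% or more of their exons (Mrpl24, Mrps25, Mrps27 and Mrps34), and 3 have a named pseudogene (Mrpl23, Mrpl48 and Mrps36); their counts are uncertain, and of these 7 only Mrpl48 was called.

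**Figure D4:**
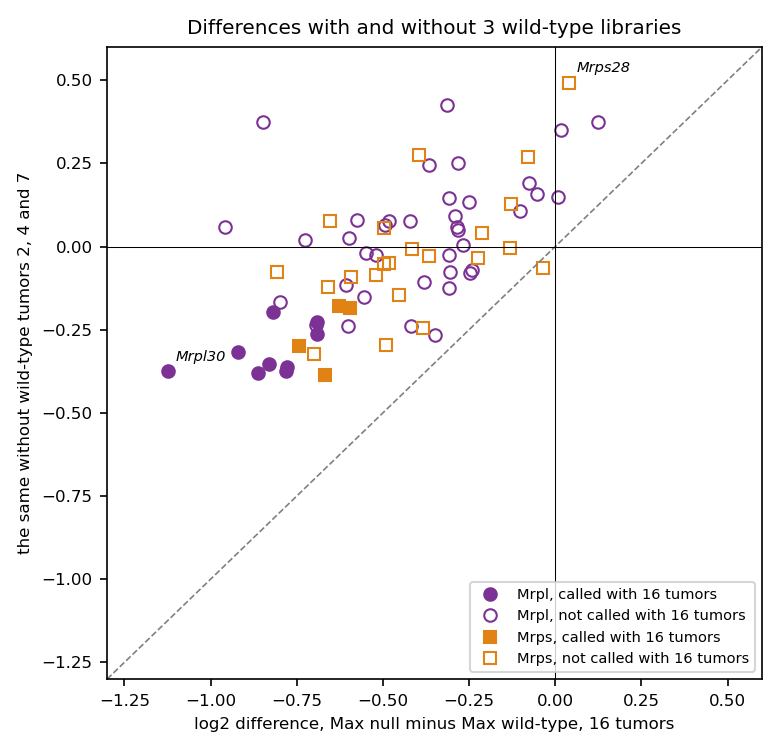
Log2 difference (null minus wild-type) of each of the 73 members with 16 tumors (x axis) and without wild-type tumors 2, 4 and 7 (y axis), filled where called with 16 tumors. The dashed line marks equal values; the median moves from -0.48 on x to -0.03 on y, and Mrpl30 keeps -0.37 on y.

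Of 10 tested genes for ribosome proteins with other symbols, 3 were lower and 0 higher (8.64% and 7.4% of all genes), and the median log2 difference was -0.47. The other 7 did not pass. Lower were Chchd1, with 42.7 ± 10.05 CPM in null tumors and 89.4 ± 60.8 CPM in wild-type tumors (edgeR adjusted p = 0.0253), Mrps18c (edgeR adjusted p = 0.0345) and Ict1, a peptide release factor built into the large subunit (edgeR adjusted p = 0.0353). Wild-type tumor 7 was highest for all 3, and without the 3 libraries 0 of the 10 passed (1 lower by an unadjusted p under 0.05, against 10.1% of all genes).

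Of 25 genes that build the ribosome and modify its RNA, 1 was higher and 2 lower, near the shares of all genes (7.4% and 8.64%), with a median log2 difference of -0.08. Mrm1, a methyltransferase of the large ribosomal RNA, measured 30.3 to 41.3 CPM in null tumors (median 36.1) and 13.3 to 20.5 CPM in wild-type tumors (median 17.3). Every null tumor was above every wild-type tumor, as held for 0.924% of all genes with the null higher. The log2 difference was 1.12 ± 0.15 (SE; edgeR adjusted p = 0.00136), and without the 3 tumors 1.06 (edgeR adjusted p = 0.0103), where 1.28% of all genes had such groups. Ybey, an RNase of ribosome maturation, averaged 9.59 ± 1.48 CPM in null tumors and 16.9 ± 6.61 CPM in wild-type tumors (edgeR adjusted p = 0.0224). Its groups were narrowly apart (null up to 11.3, wild-type from 11.5 CPM), as held for 0.654% of all genes in this direction. Mterfd1 averaged 23.4 ± 2.72 CPM in null tumors and 33.7 ± 8.82 CPM in wild-type tumors (edgeR adjusted p = 0.0379). The log2 differences were -0.81 for Ybey and -0.53 for Mterfd1, and without the 3 tumors -0.54 and -0.42 (edgeR adjusted p = 0.166 and 0.189).

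Of 17 mitochondrial tRNA synthetases, which charge tRNAs with amino acids, 2 were higher and 1 lower, also near the shares of all genes (7.4% and 8.64%), with a median log2 difference of 0.06. Ears2, the glutamyl enzyme, measured 10.7 to 27.8 CPM in null tumors (median 17.2) and 2.57 to 8.68 CPM in wild-type tumors (median 5.02). Its groups did not overlap, as held for 0.924% of all genes with the null higher. Its log2 difference was 1.79 ± 0.28 (SE; edgeR adjusted p = 0.00213), and 1.64 without the 3 tumors (edgeR adjusted p = 0.0268). Mars2, the methionyl enzyme, averaged 7.91 ± 0.923 CPM in null tumors and 4.60 ± 0.874 CPM in wild-type tumors (edgeR adjusted p = 0.0182). Its log2 difference was 0.78 with 16 tumors and 0.71 without the 3, where it did not pass (edgeR adjusted p = 0.105). Lars2, the leucyl enzyme, averaged 518 ± 297 CPM in null tumors and 1400 ± 1267 CPM in wild-type tumors (edgeR adjusted p = 0.0422), and its highest tumors were wild-type 4 and 2, not 7. Its counts ran from 282 to 3684 CPM, where the highest value of any other synthetase was 99.9 CPM (Tars2). Whether all its reads come from the enzyme's messenger RNA was not tested.

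**Figure D5:**
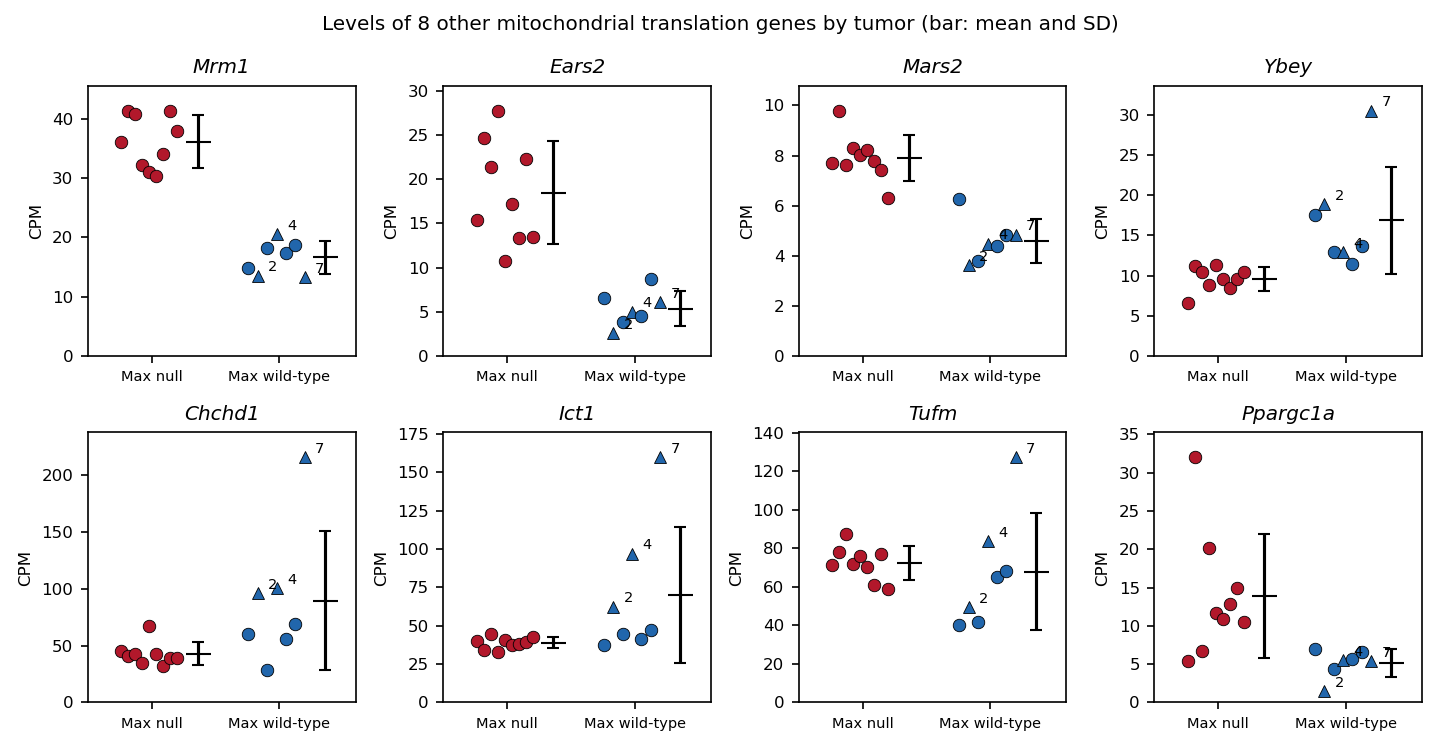
CPM of 8 genes outside the member list in each tumor, with null tumors (red) left of wild-type tumors (blue), triangles for wild-type tumors 2, 4 and 7, and bars for mean and SD. Mrm1 and Ears2 are higher in every null tumor than in any wild-type tumor, while Chchd1 and Ict1 have their highest value in wild-type tumor 7.

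Of 15 translation factors, edgeR called 0, while DESeq2 called 3 higher (10.4% of all genes). By an unadjusted p under 0.05 in edgeR, 3 of the 15 were higher and 1 lower (14.9% and 17.9% of all genes). The most abundant were Lrpprc, which stabilizes mitochondrial messenger RNA, at 131 ± 94.0 CPM in null tumors and 72.1 ± 10.1 CPM in wild-type tumors (edgeR adjusted p = 0.0552; null tumor 4 was at 375 CPM, and without it the log2 difference was 0.48, against 0.86), and the elongation factor Tufm, at 72.4 ± 8.76 CPM in null tumors and 67.9 ± 30.5 CPM in wild-type tumors (edgeR adjusted p = 0.794). For transcription and replication of mitochondrial DNA, 2 of 8 genes were higher and 0 lower (7.4% and 8.64% of all genes). The 2 were Polrmt, the RNA polymerase, and Polg, the DNA polymerase, with log2 differences of 0.51 ± 0.17 and 0.48 ± 0.16 (SE; edgeR adjusted p = 0.0462 and 0.0483). Of 9 nuclear regulators, 3 were higher and 1 lower (7.4% and 8.64% of all genes). Ppargc1a and Pprc1, coactivators of mitochondrial genes, had log2 differences of 1.43 ± 0.37 and 1.36 ± 0.34 (SE; edgeR adjusted p = 0.0194 and 0.0155). Gabpb2 had 0.75 ± 0.22 and Gabpb1 -0.59 ± 0.17, both partners of the ETS protein Gabpa (SE; edgeR adjusted p = 0.0329 and 0.0319). Gabpb2 was highest in null tumor 4, at 269 CPM. Without that tumor, 2 of the 9 regulators were higher and 0 lower (816 and 868 of 14774 genes). The counts were also 2 and 0 without null tumor 2. Without the 3 wild-type tumors, Mrm1 and Ears2 were the only genes of these 6 lists to pass. The regulators had log2 differences there of 1.24 for Ppargc1a, 0.85 for Pprc1, 0.52 for Gabpb2 and -0.70 for Gabpb1 (edgeR adjusted p = 0.132, 0.0843, 0.176 and 0.066), while Lars2 had -0.33 (edgeR adjusted p = 0.697).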

How the data were processed

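RNA from 16 whole lung tumors was sequenced, and the deposited files hold 1 whole-number count of reads per gene symbol and tumor. Tools listed in the submitters' processing notes, without role or order, are HTSeq 0.6.1, TopHat2 2.0.12, TopHat and bcl2fastq 1.8.4, with the mm9 build; annotation and strand setting were not given in the sources used here. Totals of reads outside genes or aligned more than once, 29.2% to 32.9% of reads in null and 32.8% to 45.6% in wild-type files, stayed out of library sizes and tests.

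From the deposited counts, edgeR 4.0.16 in R 4.3.3 (TMM, filterByExpr, quasi-likelihood F test, Benjamini-Hochberg adjusted p under 0.05 over 14825 genes) compared Max null with Max wild-type, without covariates. The SE is the log2 difference divided by the square root of F. CPM uses TMM-scaled library sizes, and 1 was added before log2 for plotted levels. Transcript length is the median over a symbol's transcripts in GENCODE M21, held for 98.9% of genes tested. Alternatives used DESeq2 1.42.0, limma-voom 3.58.1, other scalings and filters, and samples left out. The fits were tested on simulated data.

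The members, gene lists and tests were chosen with earlier results of these data known. Named genes were the 12 called members of smallest p, those with the largest changes or without overlap, the highest and lowest per kb in each subunit, Mrpl12, Mrps30 and Mrps36, and from each other list up to 4 called genes or the 2 most abundant; exceptions are marked in the text. The files use mm9, so coordinates are printed for RefSeq promoters on GRCm38.p6 only. Members had at least 70 reads in every tumor. The counting SD of a member in null tumors, taken as Poisson, was 4.76% of its count in the median, against a median SD between null tumors of 15.5%; it covers counting error only.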

Additional observations from a re-analysis of the deposited data

Results flagged for a closer look

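Of 44 groups of tumors checked for a single far value, 6 had one. The 5% that chance would give applies to independent groups. These groups share the same libraries, and many of the genes were named for their difference, so the count cannot be set against it. All 6 were wild-type tumor 7, the highest of its 7, by a gap to the next tumor of more than 0.568 of the group's whole range. Mrpl30 was at 284 CPM there (next 116 CPM), Mrpl48 at 132 CPM (next 67.8 CPM), Mrps10 at 69.9 CPM (next 39.5 CPM), Mrps11 at 67.4 CPM (next 29.8 CPM) and Mrpl16 at 32.0 CPM (next 18.0 CPM). The summed level of the Mrps genes was 2134 CPM there (next 1391 CPM). This tumor also had the highest multiply aligned share, 22.2%, and the lowest TMM factor, 0.748; the part of either in these levels was not tested.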

How the results depend on the processing

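Called lower with 16 tumors were 9 Mrpl and 4 Mrps genes. The Mrps count was 8 with DESeq2, 2 after length and GC correction, and 0 with limma-voom or with no filter on low counts, where 4 genes of the other lists were lower against 7 with the filter. Without wild-type tumors 2, 4 and 7, 256 genes were called (123 higher, 133 lower), with 0 Mrpl, 0 Mrps, and 2 higher and 0 lower of the other lists; log2 differences turned to 0.28 for Mrps21 and 0.024 for Mrpl12. With the multiply aligned share as covariate 10 genes were called (8 higher, 2 lower), 0 in any of these lists, and the median log2 differences turned to 0.28 (Mrpl), 0.17 (Mrps) and 0.26 (both). Single genes turned in that fit too, to 0.11 (Mrpl13), 0.082 (Mrpl48), 0.074 (Mrpl42), 0.064 (Mrpl18), 0.12 (Mrps30), 0.056 (Mrps11), 0.11 (Mrpl1), 0.74 (Mrps21), 0.30 (Mrps33), 0.52 (Mrpl12) and 0.27 (Mrps36). The causes were not tested.

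With the tumor number as a replicate block, 318 genes were called (221 higher, 97 lower), with 0 Mrpl, 0 Mrps, and 3 higher and 0 lower of the other lists. By an unadjusted p under 0.05, 10 members were lower (13.7%, near the 11.4% of all genes) and 0 higher (against 13% of all genes). The log2 difference stayed below 0 for 67 of 73 members, against 7482 of 14825 genes, with a median of -0.37, against -0.008 over all genes. The labels do not say whether the numbers pair the samples. Correlations of same-numbered deviations ran from -0.17 to 0.237, and only tumor 3 of 7 correlated best with its own number. Low correlations cannot show that same-numbered tumors share no mouse or batch. Leaving out 1 tumor at a time, 1471 to 3033 genes were called (679 to 1463 higher, 792 to 1570 lower), with 2 to 13 Mrpl and 0 to 9 Mrps lower, and 5 to 10 higher and 2 to 8 lower of the other lists. Median log2 differences then ran from -0.52 to -0.25 (both), -0.52 to -0.22 (Mrpl) and -0.53 to -0.27 (Mrps). Summed levels averaged 2635 to 2700 CPM in null and 3149 to 3904 CPM in wild-type tumors, with subunit ratios of 2.13 to 2.16 in null and 2.19 to 2.23 in wild-type tumors. With Mrps30 counted as large subunit and Mrps36 left out, the ratio came to 2.35 (null) and 2.44 (wild-type).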
